A study of Mus musculus with 3 samples.

Results

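The 9 genes described here are the insulin and insulin-like growth factor (IGF) signalling genes Insr, Igf1r, Irs1, Irs2, Igf1, Igfbp2, Igfbp4, Igfbp5 and Pik3r1. They were picked by gene symbol, 9 of 27480 genes with a row in the deposited transcript table, and all 9 were found. Each gene is read on its longest protein-coding transcript row, in TPM, a share of reads scaled by transcript length. Cortical neurons of wild-type Swiss-Webster mice at embryonic day 16 were dissociated and cultured, and poly-A RNA from 3 libraries of 1 untreated group was sequenced. The culture medium was neurobasal with B27, a supplement that supplies insulin. The labels give no drug to these libraries and no other group exists, so comparisons run between genes of the same library. The study as a whole maps the topoisomerase TOP2B in neurons. No label ties the libraries to separate cultures or animals, and the number of embryos is not stated. SDs (n = 3 throughout) and p-values therefore cover library-to-library spread only, possibly technical spread.

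Insulin and the IGFs act through a pair of related receptor tyrosine kinases, encoded by Insr and Igf1r. The activated receptors phosphorylate the docking proteins IRS1 and IRS2, which recruit phosphoinositide 3-kinase (PI3K) through its regulatory subunit and so switch on AKT and mTOR. Secreted IGF-binding proteins hold IGFs in the extracellular space and set how much reaches the receptors. In the brain this pathway supports neuronal survival and growth.

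Counting for every gene the row with most reads, libraries 1, 2 and 3 held 33834723, 29881843 and 29444795 reads. Pan-neuronal markers were high (6 of 6 at 1 TPM or more, summed level 1715 to 1932 TPM per library), as were astrocyte markers (8 of 8, 425 to 517 TPM). Excitatory markers (6 of 6) summed to 198 ± 2.98 TPM, inhibitory markers (8 of 8) to 196 to 299 TPM and oligodendrocyte lineage markers (6 of 7) to 49.7 to 82.1 TPM. Progenitor markers (5 of 6) summed to 64.7 to 81.0 TPM, from Eomes at 0.0129 ± 0.0173 TPM to Vim at 44.8 ± 6.78 TPM. The cultures thus held RNA of glia and neurons, and in bulk RNA fewer cells of a type cannot be told apart from less RNA per cell. Microglia markers were low (1 of 8 at 1 TPM or more, sum 1.45 to 2.37 TPM). They ran from Tmem119 at 0 reads to Aif1 at 1.03 ± 0.425 TPM. Endothelial and mural markers were also low (1 of 6, sum 1.87 to 2.25 TPM), from Cldn5 at 0 reads to Pdgfrb at 1.08 ± 0.311 TPM. Meningeal fibroblast markers (2 of 6) summed to 4.04 to 5.75 TPM. The 2 were Dcn at 2.75 ± 0.771 TPM, above the mean of Igf1r, and Ogn at 1.70 ± 0.498 TPM.

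All 9 genes stood at a mean of at least 1 TPM, against 61.5% of protein-coding genes, and 3 of them at 10 TPM or more, against 26.4%. The binding protein genes Igfbp2 and Igfbp5 were the highest, the PI3K subunit gene Pik3r1 followed, then came Igfbp4, and the receptors, docking proteins and Igf1 had means between 2.08 and 4.01 TPM. Their median was 2.33 ± 0.06 on the log2(TPM + 1) scale, beside 1.94 over 18221 protein-coding genes. The order was not the same in every library. Igfbp2 led in libraries 1 and 2 and Igfbp5 in library 3, Insr and Irs2 changed places between libraries 1 and 2, and Igf1 and Irs1 between libraries 2 and 3. The ranks of Pik3r1, Igfbp4 and Igf1r were the same in all 3 libraries.

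**Figure D1:**
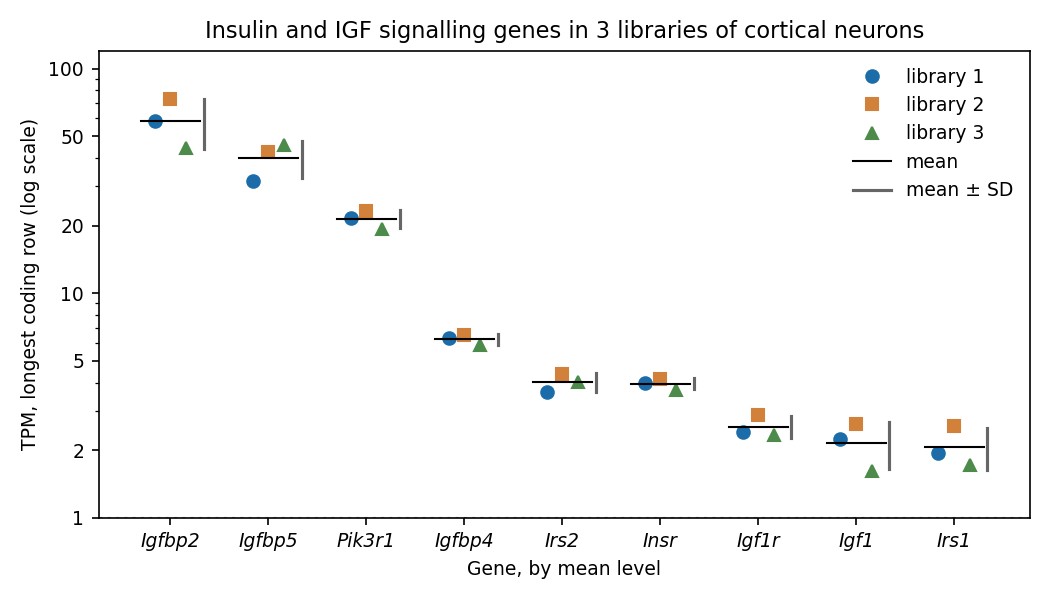
TPM (log axis) of the 9 genes in each of 3 libraries, with the mean as a line and mean ± SD as a bar at the right of each gene. Igfbp2 and Igfbp5 change order in library 3, and Insr with Irs2, and Igf1 with Irs1, overlap.

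Of the ligands measured, on the longest coding rows, Igf1 was transcribed and the insulin gene Ins2 barely so. Igf1, on mm10 chromosome 10 (87859068 to 87937042, plus strand), stood at 2.24, 2.62 and 1.62 TPM in libraries 1, 2 and 3, from 808, 800 and 521 reads. Library 3 was the lowest. The mean was 2.16 ± 0.508 TPM, at percentile 46.4 of protein-coding genes. Igf2, the fetal growth factor, had 73, 55 and 32 reads and a mean of 0.240 ± 0.0808 TPM. Ins2, an insulin gene, had 3, 3 and 4 reads. With all rows summed, which may count reads more than once, both Igf2 and Ins2 were at 1 TPM or more. After scaling to nuclear protein-coding genes, 1 of them was. Ins1 has no row. On the log2(TPM + 1) scale, used for all differences, Igf1 exceeded Igf2 by 1.34 ± 0.16, and did so in each library. With a pseudocount of 0.1 the same difference was 2.74.

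The Igf1 row used is mostly untranslated sequence, with 7052 bases of which 6.51% are coding. Comparison with the highest Igf1 row, which has 1 more exon and ends early in the last exon, limits where long-row reads lie. The longer row has 5431 bases outside the shorter, nearly all in the far end of the last exon, or 77.0% of its length. If both rows counted reads over shared bases, at least 74.3%, 78.1% and 72.6% of long-row reads (libraries 1, 2 and 3) fell there. These are lower limits. On that condition the outside bases held at least close to their share by length, and may have held more. Library 3 was also the lowest in all other Igf1 rows, for example at 1.19, 1.23 and 0.629 TPM in a row of 1391 bases.

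The receptor gene Insr stood above Igf1r. Insr (chromosome 8, 3150922 to 3279617, minus strand, 21 exons) was at 3.97, 4.16 and 3.72 TPM, a mean of 3.95 ± 0.222 TPM. Igf1r (chromosome 7, 67952859 to 68226780, plus strand, 21 exons) was at 2.42, 2.88 and 2.34 TPM, a mean of 2.55 ± 0.288 TPM. The ranges of these genes did not overlap. The log2 difference, Igf1r minus Insr, was -0.48 ± 0.06 and negative in each library. An exact permutation of signs (two-sided) gave p = 0.25, the smallest value 3 libraries allow, and 0.304 after Benjamini-Hochberg adjustment over the 17 pairs compared. That p held for 14 of the 17 pairs, and the other 3 are named where they are described.

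The models behind the receptor values differ. The deposited Igf1r row is 4489 bases long, 6920 fewer than the same transcript in GENCODE M21, because it lacks most of the 3′ untranslated region, and 91.5% of it is coding. The Insr row is 9355 bases long and 44.0% of it is coding. A shorter Insr row holds 1397 bases of the first 3 exons and 278 bases of an intron, and stood at 2.50, 2.15 and 2.29 TPM. If none of its reads came from the intron, these exons were at most at 3.003, 2.58 and 2.74 TPM, above Igf1r in libraries 1 and 3 and below it in library 2. This limit holds only if every read over these exons was counted for the row, and the treatment of shared reads is unknown. The difference, Igf1r minus Insr, was 0.10 on that row as deposited (exact permutation p = 0.75) and -0.09 at the upper limit (exact permutation p = 0.5). Both comparisons were chosen after seeing the data, and on neither did the receptors differ with 1 sign in all libraries. Igf2r, the receptor that removes IGF2 from the surface without signalling through IRS proteins, stood at 5.07 ± 0.347 TPM, above Igf1r by 0.78 ± 0.04, with the same sign in each library. Insrr, the orphan relative of the insulin receptor, had 0 reads in each library. A count of 0 allows up to 3 reads, or 0.0115, 0.0136 and 0.0129 TPM, by counting error alone.

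The docking protein genes sit on different chromosomes and each is a gene of 2 exons. Irs2 (chromosome 8, 10986980 to 11008458, minus strand) stood at 3.62, 4.38 and 4.04 TPM, a mean of 4.01 ± 0.380 TPM. Irs1 (chromosome 1, 82233101 to 82291416, minus strand) stood at 1.94, 2.57 and 1.72 TPM, a mean of 2.08 ± 0.443 TPM. Every library of Irs2 was above every library of Irs1, and the difference was 0.71 ± 0.16. The Irs2 row is short of 2299 bases of 3′ untranslated sequence and is 98.5% coding, against 40.4% for Irs1. Irs2 and Insr could not be ordered, with a difference of 0.02 ± 0.11 that was negative in library 1 (exact permutation p = 1). Neither could Igf1 and Irs1, at 0.03 ± 0.10 (exact permutation p = 0.75). Igf1r lay above Igf1 in each library, yet by only 0.18 ± 0.15, and by 0.09 without library 3.

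The promoters of Irs1 and Irs2 are printed because they share a pair of sequence words. RefSeq entries on GRCm38.p6 gave 10 promoters for 8 of the 9 genes, and the 250 bases before each start were searched on both strands. CACGTG, the core of the E-box that bHLH factors bind, was in 6.02% of 32851 promoters, and TGTTTTG, a word known from insulin response elements, in 5.56%. The forkhead word GTAAACA was in 3.17% of promoters and none of the 10. The words TATAAA and GGGCGG, described with the promoters of Igfbp2 and Pik3r1, were searched too. Of the promoters not printed in full, Igfbp4 held 1 TATAAA, and GGGCGG was found in those of Igf1r, Irs1 and Irs2. CACGTG and TGTTTTG occurred together in 97 promoters, 0.295% of all, and in 2 of the 10, those of Irs1 and Irs2. This pair of words was chosen after the sequences were seen, and a match is a description of letters, not of binding. The 120 bases around the words are given 5′ to 3′, with CACGTG and TGTTTTG in capitals and no other word marked. Irs1 is on chr1:82291485-82291604 and Irs2 on chr8:11008930-11009049, both on the minus strand.
Irs1: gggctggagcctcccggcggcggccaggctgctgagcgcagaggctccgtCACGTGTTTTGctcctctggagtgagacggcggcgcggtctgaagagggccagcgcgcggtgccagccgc
Irs2: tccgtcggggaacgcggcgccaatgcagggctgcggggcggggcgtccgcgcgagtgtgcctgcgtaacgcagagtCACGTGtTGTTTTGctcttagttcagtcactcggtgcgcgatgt
In Irs1 the words overlap by the letters TG, 115 and 111 bases before the RefSeq start. In Irs2 they lie 44 and 37 bases before it, with 1 base between them. A further TGTTTTG lies nearer the Irs1 start, outside the printed stretch.

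Among the binding protein genes, Igfbp2 and Igfbp5 stood far above Igfbp4. Igfbp2 (chromosome 1, 72824503 to 72852474, plus strand) was at 58.2, 73.0 and 44.1 TPM, a mean of 58.4 ± 14.4 TPM, from 3897, 4126 and 2635 reads. Igfbp5 (chromosome 1, 72857932 to 72874884, minus strand) was at 31.5, 42.6 and 45.6 TPM, a mean of 39.9 ± 7.43 TPM, from 9703, 11066 and 12515 reads. Library 3 was the lowest for Igfbp2 and the highest for Igfbp5. The genes lie end to end, 5457 bases apart, on opposite strands. Their difference was 0.53 ± 0.50, with 0.86 and 0.76 in libraries 1 and 2 and -0.05 in library 3 (exact permutation p = 0.5), so on these rows neither can be called the higher. On the highest row of each gene the difference was 0.75 and had 1 sign in all libraries.

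Igfbp4 (chromosome 11, 99041244 to 99054392, plus strand) was the steadiest of the binding protein genes. It stood at 6.31, 6.53 and 5.86 TPM, a mean of 6.23 ± 0.342 TPM. Igfbp2 exceeded it by 3.01 ± 0.29 and Igfbp5 by 2.48 ± 0.31, each in all libraries. All 5 shorter Igfbp4 rows were higher, up to 14.99 ± 0.934 TPM. Of the long row, 80.2% of the bases lie outside one of these, at 14.0 ± 1.76 TPM. If both rows counted reads over shared bases, at least 49.7%, 54.7% and 57.9% of long-row reads fell on those outside bases. The row read set the size of these differences. On the highest rows Igfbp5 exceeded Igfbp4 by 1.49, and with all rows summed by 0.28, with the sign lost in 1 library (exact permutation p = 0.5), while Igfbp2 exceeded Igfbp4 by 1.45 with summed rows.

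Igfbp2 and Igfbp5 are shown by the 250 bases before their RefSeq starts, because these neighbours moved in opposite ways between libraries 1 and 3. Igfbp2 has another RefSeq start, not printed. Of the long Igfbp2 row, 469 bases (35.9%) lie outside the highest row, which starts further 3′. If both rows counted reads over shared bases, at least 1.26%, 0.921% and 2.09% of long-row reads (libraries 1, 2 and 3) fell there. Which start the reads came from was not tested. Capitals mark CACGTG and GGGCGG, the GC box that SP factors bind, which was in 32.7% of promoters. The Igfbp2 window is chr1:72824230-72824479 on the plus strand and the Igfbp5 window chr1:72874866-72875115 on the minus strand.
Igfbp2: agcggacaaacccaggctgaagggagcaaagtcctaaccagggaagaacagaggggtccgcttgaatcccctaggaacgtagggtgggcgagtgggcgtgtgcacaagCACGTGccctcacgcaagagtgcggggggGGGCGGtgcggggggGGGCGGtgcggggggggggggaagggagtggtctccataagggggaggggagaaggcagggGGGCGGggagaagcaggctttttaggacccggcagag
Igfbp5: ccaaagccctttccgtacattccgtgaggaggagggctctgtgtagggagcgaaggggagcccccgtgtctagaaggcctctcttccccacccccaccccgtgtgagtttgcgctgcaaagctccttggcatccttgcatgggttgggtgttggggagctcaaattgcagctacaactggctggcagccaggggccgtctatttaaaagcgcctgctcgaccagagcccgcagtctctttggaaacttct
The Igfbp2 window holds 1 CACGTG and 3 GGGCGG and is 67.2% G or C. The Igfbp5 window holds neither word and is 58.8% G or C, beside a median of 52.4% over all promoters.

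RNA of the binding protein gene Igfbp5 stood far above that of the ligand gene Igf1. Igfbp5 exceeded Igf1 by 3.69 ± 0.42 on the log2 scale, with 1 sign in all libraries, and by 2.79 with summed rows. Other IGF carriers and proteases were mostly low, with 5 of 11 at 1 TPM or more and a median of 0.85 ± 0.04. Igfbp3, the main IGF carrier of serum, had the highest mean of them on the longest coding rows, at 13.1, 18.7 and 11.999 TPM. Htra1, a secreted protease that cleaves binding proteins, stood at 12.4 ± 1.03 TPM and Stc2, which inhibits the pappalysins, at 3.20 ± 0.395 TPM. In library 3 Htra1 was above Igfbp3. On the highest rows the mean of Htra1 was also above that of Igfbp3, so which of them leads depends on the row read. The pappalysin genes Pappa and Pappa2, whose products cut IGFBP4 and IGFBP5, were at 0.0475 ± 0.0176 and 0.0456 ± 0.0156 TPM. Igfbp1 and Igfals, of the liver's serum carrier system, had 3 reads and 1 read in all.

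**Figure D2:**
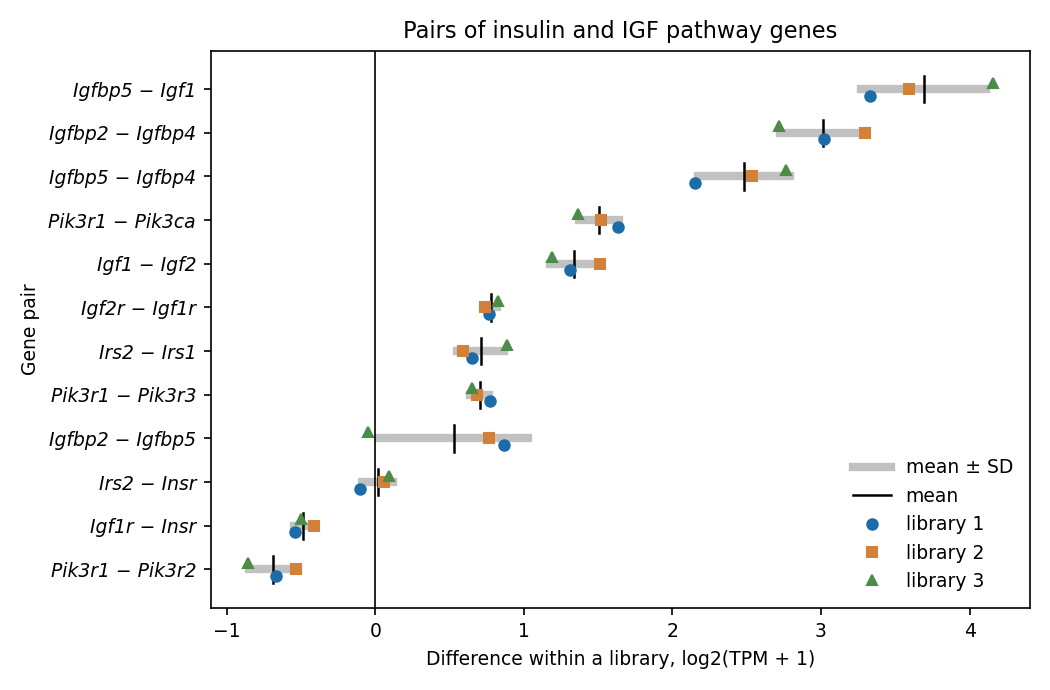
Difference within each library, on the log2(TPM + 1) scale, for 12 listed gene pairs, with the mean and mean ± SD of 3 libraries. For 10 pairs all points lie on one side of 0, and for Igfbp2 against Igfbp5 and Irs2 against Insr they lie on both.

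Pik3r1 was the highest intracellular member. It encodes p85α and, from internal starts, the shorter p55α and p50α, which keep the SH2 domains that bind IRS proteins and lack the SH3 domain. Pik3r1 (chromosome 13, 101680563 to 101768217, minus strand, 16 exons) stood at 21.7, 23.2 and 19.4 TPM, a mean of 21.4 ± 1.95 TPM, from 7900, 7140 and 6288 reads. The paralog Pik3r2, encoding p85β, was higher at 34.98 ± 0.928 TPM (Pik3r1 minus Pik3r2, -0.69 ± 0.16). Pik3r3, encoding p55γ, was lower at 12.8 ± 1.14 TPM, a difference of 0.70 ± 0.07. The catalytic subunit gene Pik3ca stood at 6.88 ± 0.561 TPM, below Pik3r1 by 1.51 ± 0.13. Each of these differences had 1 sign in all libraries on the longest coding rows. On the highest rows Pik3r1 minus Pik3r2 was only -0.13 and did not keep 1 sign (exact permutation p = 0.5), whereas Pik3r1 minus Pik3r3 was 1.42.

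The rows of Pik3r1 were not level along the gene. The row of 472 bases covers 280 bases of exons found in the p85α row and not in the shorter coding row, plus 192 intronic bases, and stood at 10.5, 8.72 and 7.37 TPM. If no read came from the intron, those exons were at most at 17.7, 14.7 and 12.4 TPM. This limit holds only if every read over those exons was counted for the row, and the treatment of shared reads is unknown. The row of 701 bases, made of 571 shared exonic bases and 130 bases of the internal first exon, stood at 33.5, 42.5 and 37.9 TPM. That is 1.89, 2.89 and 3.05 times the limit for the p85α exons, higher in each library. The rows that reach further 3′ were lower than this one, at 27.4 ± 2.16 TPM for the shorter coding row and 21.4 ± 1.95 TPM for the longest. A row of 2706 bases at the 5′ end, with 951 p85α exonic bases and 1755 intronic ones, stood at 3.20 ± 0.111 TPM. Under the same conditions its exons were at no more than 9.11 ± 0.315 TPM.

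The starts of the long and the internal transcript differ in sequence, and both are printed. The coding rows that begin at them share 2475 exonic bases, so neither row measures 1 start alone. Each is the 250 bases before the start, minus strand, with GGGCGG and TATAAA (here read on the other strand as TTTATA) in capitals. The first is chr13:101768218-101768467 and the internal start chr13:101692631-101692880.
Pik3r1 long: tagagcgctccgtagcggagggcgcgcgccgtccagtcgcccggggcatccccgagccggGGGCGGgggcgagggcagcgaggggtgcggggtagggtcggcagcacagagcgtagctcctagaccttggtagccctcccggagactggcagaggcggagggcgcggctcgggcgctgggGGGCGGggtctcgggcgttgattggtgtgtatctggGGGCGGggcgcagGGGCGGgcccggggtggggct
Pik3r1 internal: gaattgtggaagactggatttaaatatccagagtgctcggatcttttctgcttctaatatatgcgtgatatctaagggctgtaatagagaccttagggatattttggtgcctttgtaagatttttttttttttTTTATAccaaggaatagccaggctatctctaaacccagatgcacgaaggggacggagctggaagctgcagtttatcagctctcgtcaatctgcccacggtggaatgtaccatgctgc
The long start is 76.4% G or C with 30 CpG and 4 GGGCGG, and 94.1% of promoters have fewer CpG. The internal start is 42.4% G or C with 6 CpG, the median of all promoters, and 1 TTTATA that lies 117 bases before the start. TATAAA on either strand was in 12.4% of promoters.

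**Figure D3:**
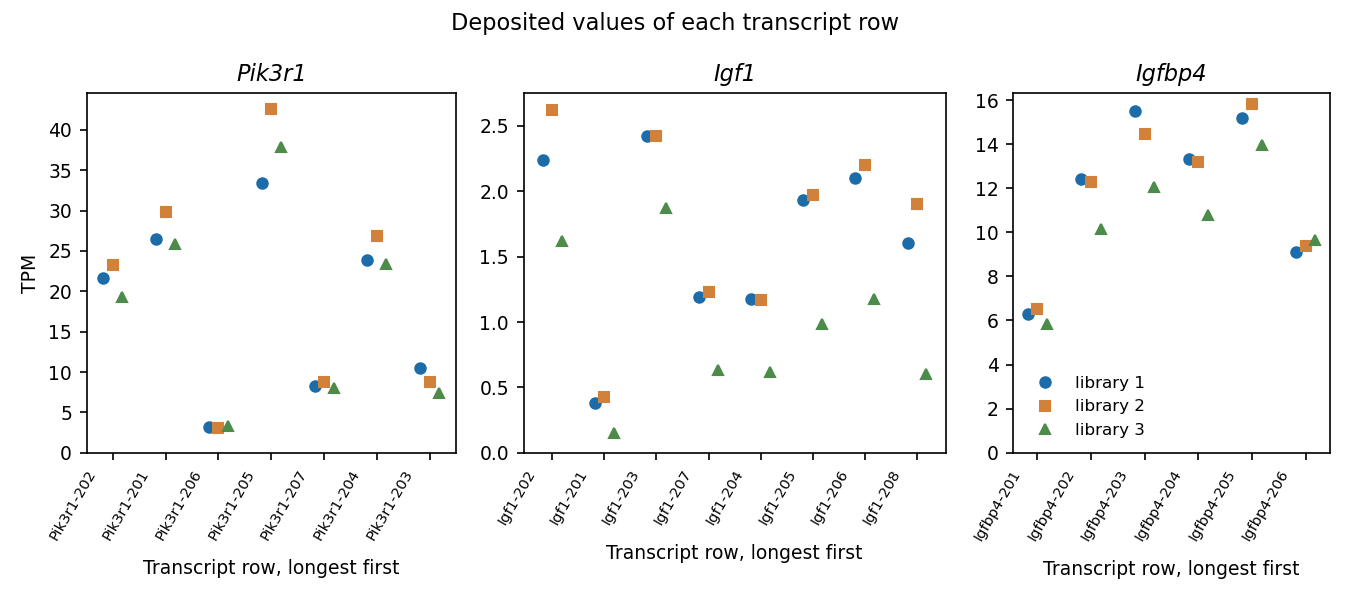
TPM of every deposited row of Pik3r1, Igf1 and Igfbp4 by library, longest row at the left of each panel. Rows of a gene can share bases and spread over several-fold levels, and library 3 is the lowest in each Igf1 row.

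For the 6 genes with several rows the level depends on which is read. The highest row was at least 1.5 times the longest coding row for Igfbp4 (2.41 times) and Pik3r1 (1.77 times, 38.0 ± 4.54 TPM), 2 of the 9 genes and so near the 19.9% of protein-coding genes at 1 TPM or more. For Igfbp2 the highest row was 76.1 ± 19.2 TPM, 1.30 times. Irs1, Irs2 and Igf1r have 1 row each.

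The spread between libraries differed among the 9 genes. The coefficient of variation was 24.7% for Igfbp2, 23.5% for Igf1, 21.3% for Irs1 and 18.6% for Igfbp5. These 4 exceeded more than 90% of protein-coding genes of like level (a mean TPM from 0.5 to 2 times their own), against 9.84% of all protein-coding genes at 1 TPM or more. It was 5.49% for Igfbp4 and 5.62% for Insr, below the medians of 7.59% and 8.14% for genes of their level. These are values of the longest coding rows, and the spread depends on the row. The highest Igf1 row was at 2.24 ± 0.318 TPM, beside 2.16 ± 0.508 TPM on the longest. An Igfbp4 row of 785 bases was at 14.0 ± 1.76 TPM, beside 6.23 ± 0.342 TPM on the longest. Counting error was 0.953% to 4.34% of a value, lower than the coefficient of variation of each gene.

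On the longest coding rows, 7 of the 9 genes were highest in library 2 and lowest in library 3, with library 1 between. So were 24% of protein-coding genes at 1 TPM or more. The exceptions were Igfbp5 and Irs2. On the highest rows, Pik3r1 (33.5, 42.5 and 37.9 TPM in libraries 1, 2 and 3) and Igf1 (2.43, 2.42 and 1.87 TPM) also lacked this order. Some shorter rows of Igfbp4 and the short row of Insr lacked it too. The marker sums had that order in 5 of 11 lists. They were the pan-neuronal list (1898, 1932 and 1715 TPM in libraries 1, 2 and 3), the inhibitory list (284, 299 and 196 TPM) and the sparse microglia, Cajal-Retzius and blood lists. Within the inhibitory list 5 of 8 genes had it. The astrocyte markers summed to 425, 452 and 517 TPM, highest in library 3 as Igfbp5 was, but 3 of the 8 genes had the full library order of Igfbp5. The oligodendrocyte lineage markers summed to 65.7, 49.7 and 82.1 TPM. The part of cell makeup in the levels of these genes was not tested.

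**Figure D4:**
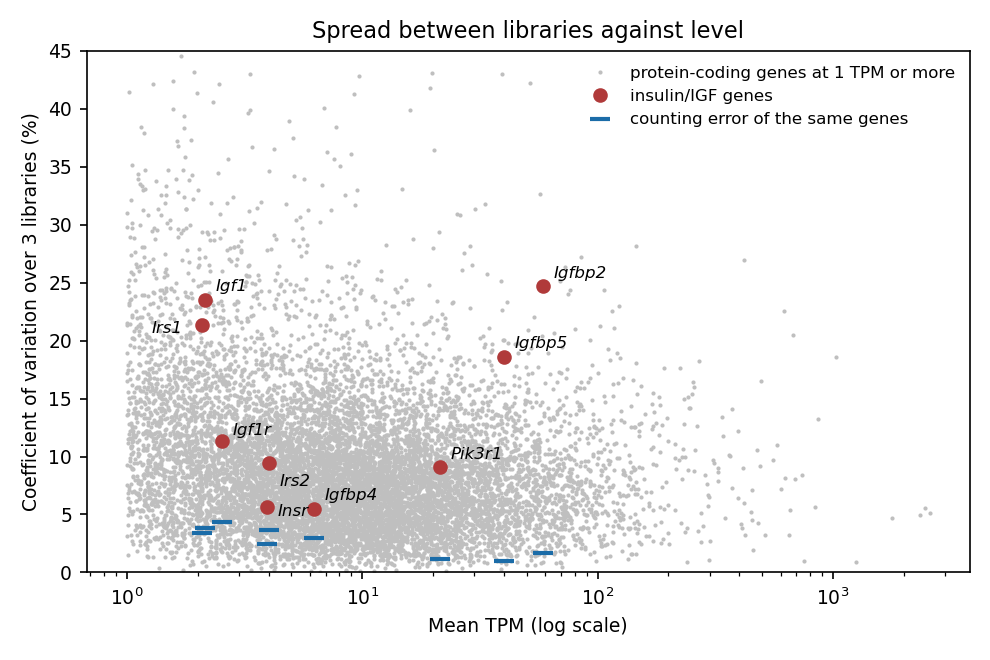
Coefficient of variation over 3 libraries against mean TPM (log axis) for protein-coding genes at 1 TPM or more (grey) and the 9 genes (red), with the counting error of the 9 genes in blue. Igfbp2, Igfbp5, Igf1 and Irs1 lie high among genes of their level, and 27 genes above 45% are not drawn.

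Of 84 other pathway genes with a row, from ligands to downstream kinases, 63 (75%) reached 1 TPM, against 61.5% over all protein-coding genes. At 10 TPM or more stood 26 of the 84, against 26.4%. The 84 genes had a log2 median of 2.74 ± 0.07. These lists were drawn up with earlier results of these libraries known. All 14 genes of the mTOR arm were at 1 TPM or more, led by Rheb, the GTPase that activates mTOR, at 67.2 ± 2.18 TPM. Mapkap1, of mTOR complex 2, stood at 17.1 ± 0.118 TPM and the translation repressor gene Eif4ebp1 at 13.0 ± 2.33 TPM. Of the AKT arm, 11 of 12 were at 1 TPM or more. Among them the glycogen synthase kinase gene Gsk3a stood at 44.5 ± 0.985 TPM, above Akt1, which was at 37.2, 33.7 and 34.04 TPM. On the highest rows the order was the other way, with Akt1 at 55.9 ± 3.46 TPM and Gsk3a at 44.7 ± 0.990 TPM.

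Of 11 adaptor genes, 8 were at 1 TPM or more, led by Grb2, which links receptors to RAS, at 40.4 ± 2.57 TPM. Crk and Sh2b1 followed at 34.9 ± 1.65 and 14.3 ± 0.285 TPM. The other docking protein genes Irs3 and Irs4 had 2 and 25 reads in all, far fewer than Irs1 and Irs2. Of the PI3K genes, 9 of 11 were at 1 TPM or more. On the longest rows the highest after Pik3r2 and Pik3r3 was Pik3c3, of the endosomal lipid kinase, at 9.41 ± 0.744 TPM. On the highest rows Pik3ca, at 16.2 ± 3.04 TPM, was above Pik3r3 at 13.5 ± 0.939 TPM and Pik3c3 at 9.75 ± 0.772 TPM. Of 17 inhibitors, 12 were at 1 TPM or more. Among them the insulin-degrading protease gene Ide stood at 16.7 ± 1.70 TPM and the receptor phosphatase gene Ptprf at 15.8 ± 0.741 TPM. Of the glucose transporter genes, Slc2a3, the neuronal form, stood at 40.4 ± 4.44 TPM, Slc2a1 at 7.44 ± 0.915 TPM and the insulin-responsive Slc2a4 at 0.603 ± 0.186 TPM. Of the other receptors listed, 2 of 3 were at 1 TPM or more, Igf2r and Sorcs1, a sorting receptor, at 3.63 ± 0.566 TPM.

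**Figure D5:**
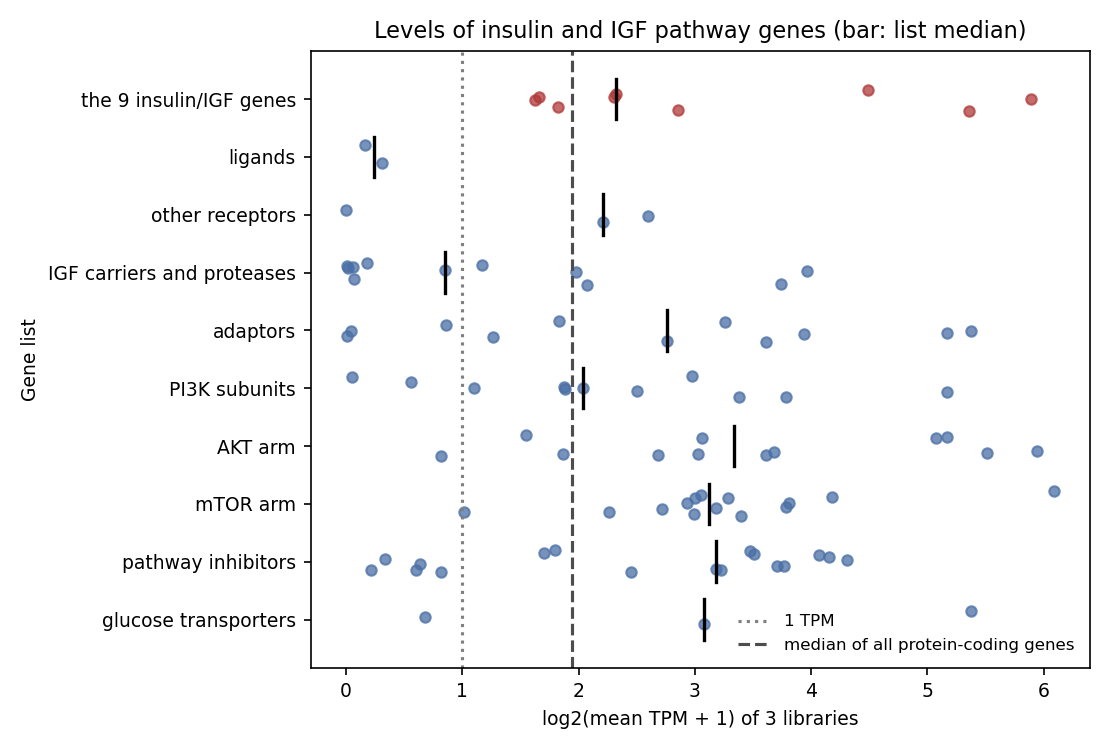
log2(mean TPM + 1) of the 9 genes (red) and of the other pathway genes by list (blue), with list medians as bars, 1 TPM as a dotted line and the median of protein-coding genes as a dashed line. The AKT, mTOR, inhibitor and glucose transporter lists have medians above 3. Both measured ligands outside the 9 genes are under 1 TPM on the longest coding rows.

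Genes at the closest levels over the 3 libraries, by Euclidean distance in log2(TPM + 1), are given for each member as a likeness of level alone. They were Purb and Gria1 for Igfbp2 (distances 0.129 and 0.248), Gja1 and Bhlhb9 for Igfbp5 (0.168 and 0.192), and Tm9sf4 and Ap1b1 for Pik3r1 (0.0401 and 0.0408). They were Zfp940 and Cab39l for Igfbp4 (0.0136 and 0.0278), Pibf1 and Cry1 for Irs2 (0.0263 and 0.0333), and D630045J12Rik and Fn3krp for Insr (0.0299 and 0.0321). They were Unc5c and Rbms1 for Igf1r (0.0191 and 0.0322), Trpm3 and Emc9 for Igf1 (0.0266 and 0.0946), and Cebpb and Emc9 for Irs1 (0.0758 and 0.0797).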

How the data were processed

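RNA from 3 libraries of untreated cortical neurons was analysed. The table deposited by the authors gives TPM per GENCODE M4 transcript, per the file headers and name. Trimmomatic, TopHat, Bowtie, HTSeq and the build mm10 are named per the submitters' processing notes, without versions or order. The strand setting, the treatment of shared reads and any filter are unknown: not given in the sources used here. Rows were matched to GENCODE M21 by transcript identifier without version: 83017 of 84660 matched, 82970 of them at the same place. Multiplying TPM by exon length and dividing by a constant of each library gave whole reads (tolerance 0.01) for 99.8% of the rows compared. Igf1r and Irs2 lengths were corrected for their moved ends and gave whole reads. On simulated reads 100% of 74441 rows were recovered in libraries 1, 2 and 3. Library pairs differed by 13.2, 18.6 and 20.0 chi-square per degree of freedom over genes with at least 20 reads, so none is a copy.

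Gene values are longest protein-coding rows, and logs use a pseudocount of 1, so log2(TPM + 1) shrinks the ratios of low genes. Differences were taken within a library and tested by an exact two-sided sign-flip permutation, with Benjamini-Hochberg adjustment over 12 listed pairs and 5 added neighbours in level. The sequences are RefSeq promoter entries. Named genes are the 9 members, the highest 3 of each pathway list, the paired genes and the 2 genes nearest each member in level. Some genes that this rule names are not reported here. Pappa, Pappa2, Igfbp1, Igfals, Irs3 and Irs4 are list genes given values outside this rule, after their values were seen. The marker genes named with values were also picked after their values were seen. Members and lists were chosen with earlier results of these data known. Alternatives were the highest and the summed row, scaling to nuclear protein-coding genes, leaving out each library, the median of libraries, a pseudocount of 0.1, limits of 0.5 and 5 TPM, and a median over genes at 1 TPM or more. Reading Insr on its short row, as deposited or at its exonic limit, was added after seeing the data. Python 3.11.15, numpy 2.4.6, pandas 2.3.3, scipy 1.17.1 and matplotlib 3.10.9 were used.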

Additional observations from a re-analysis of the deposited data

How the results depend on the processing

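Of 121 alternative values of the 17 pair differences, 7 reversed and 23 more, over 14 pairs, moved by over 1.5 times with the same sign, mostly with the highest or summed rows. No paired analysis was possible because there is 1 group, so no samples pair across groups, and differences were between genes of a library. Among the moved values, the highest rows gave 0.21 for Igfbp5 minus Pik3r1 and 1.67 for Igfbp4 minus Irs2. Summed rows gave -1.04 for Igf1r minus Insr, 1.56 for Igf2r minus Igf1r, 1.16 for Igfbp2 minus Igfbp5 and 1.997 for Igf1 minus Irs1. Scaling gave 2.39 for Igf1 minus Igf2. Summing transcript rows turned Irs2 minus Insr to -0.54, Igfbp5 minus Pik3r1 to -0.65 and Igf1r minus Igf1 to -1.79. A sum counts reads over shared bases repeatedly if each row counted them, which is unknown. The other reversed differences were near 0 or rest on the row read: Irs2 minus Insr without replicate 2 or 3 (-0.00579 and -0.0229), whose range over left-out libraries was -0.0229 to 0.0763, Igf1 minus Irs1 without replicate 1 (-0.0172, up to 0.0795 without replicate 3), and Igf1r minus Insr on the short, partly intronic Insr row (0.10). The count of the 9 genes fell to 4 at a limit of 5 TPM and the other 8 alternatives kept it within 1.5 times. The median of the 9 genes was 3.65 with summed rows and 4.33 after scaling. That of the other pathway genes was 2.85 with the highest row, 3.80 with summed rows, 4.80 after scaling and 3.19 over genes at 1 TPM or more. Scaling raised the median protein-coding gene by 1.91, so levels near 1 TPM depend on it. Leaving out library 3 moved Igfbp2 minus Igfbp5 to 0.81, over 1.5 times its value. The cause of these shifts was not tested. With 3 libraries no pair difference can pass a threshold of 0.05.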
